A study of Mus musculus with 27 samples.

Results

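Livers of mice given carbon tetrachloride (CCl4) together with 4-methylumbelliferone (4MU) were compared with livers of mice given CCl4 without 4MU, by RNA-seq of total liver homogenate. The members of this comparison were chosen by their column labels. They are the 4 CCl4+4MU libraries and the 2 CCl4 libraries, 6 of the 27 libraries of the series, and there was no other library with CCl4 alone. Female Balb/c mice aged 8 weeks received CCl4 by intraperitoneal (IP) injection for 2 weeks, and this was the only treatment named for the CCl4 group. The CCl4+4MU group had the same injections plus 4MU by gavage at 600 mg/kg daily, begun 2 days before the first CCl4 injection, so it tests dosing that preceded and accompanied the injury. The study's methods give a carboxymethyl cellulose gavage for control mice, but the labels do not say whether the CCl4 mice were gavaged. Some comparisons below also use 4 control mice (IP olive oil with PBS into the tail vein), 3 mice of the 4MU group (IP olive oil with 4MU gavage) and 4 CCl4+siLuc-LNP mice. The last group had CCl4 and lipid nanoparticles (LNP) carrying an siRNA against luciferase, a gene that mice lack. It is a further CCl4 group without 4MU, but no plain control, since the particles were given with CCl4. Of the 55414 genes counted, 14114 averaged 10 counts or more over the 27 libraries and were tested.

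4MU is a coumarin derivative that lowers the synthesis of hyaluronan, a long unsulphated glycosaminoglycan of the extracellular matrix. The synthases Has1, Has2 and Has3 build hyaluronan from UDP-glucuronic acid and UDP-N-acetylglucosamine. 4MU is itself a substrate of UDP-glucuronosyltransferases, so it draws on the UDP-glucuronic acid that the synthases use, and it is also sulphated. CCl4 is turned into a radical by cytochrome P450, chiefly Cyp2e1, in the hepatocytes around the central vein. The hepatocytes that survive enter the cell cycle, and hepatic stellate cells become collagen-producing myofibroblasts. Bulk RNA from a whole liver mixes all of these cells, and fewer cells of a type cannot be told apart here from less RNA per cell.

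The 2 CCl4 libraries held 18249896 and 20087676 counts and the 4 CCl4+4MU libraries 22108328 to 29425937. Values are given as CPM, counts relative to the library total, scaled by TMM, which sets library sizes so that most genes do not change. The hepatocyte marker Alb stood at 100405 and 58085 CPM in CCl4 and at 124066 to 149049 CPM in CCl4+4MU, so all 6 libraries carried the tissue named on the label. On the first principal component over all tested genes (54.8% of the variance) control livers lay at -50.4 to -35.1 and CCl4+4MU livers at 33.6 to 50.6. The CCl4 livers lay further out, CCl4 mouse 1 at 68.4 and CCl4 mouse 2 at 91.4. CCl4+4MU mouse 4 stood apart from its group on the second component (13.2% of the variance), at 57.5 against 12 to 25.1. The 2 CCl4 mice thus differed from each other, and the calls are also given against CCl4 mouse 1 alone, and the counts of a list against mouse 2 alone where a count of at least 5 in either fit changed by 1.5 times or more.

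In CCl4+4MU against CCl4 livers, 1168 genes were higher (8.28% of the genes tested) and 1412 lower (10%), 2580 in all (18.3%), by the quasi-likelihood test of edgeR (Benjamini-Hochberg adjusted p under 0.05). Among the lists described below, 39 of 40 mitotic genes, 18 of 34 splicing genes and 16 of 30 genes of folding in the endoplasmic reticulum (ER) were lower, and 18 of 51 xenobiotic genes, mostly cytochromes P450, and 18 of 44 genes of amino acid breakdown were higher. The 6 libraries did not overlap between the groups in 6272 genes (44.4%), of which 2506 were called. Most of the 2580 called genes were thus without overlap. Where this is noted for a called gene below, it adds no support to the call. With CCl4 mouse 1 alone as the reference, without mouse 2, the test called 177 genes (1.25%), 51 higher and 126 lower, and with CCl4 mouse 2 alone it called 2334 (16.5%). The sign of the change was the same against either mouse in 2577 of the 2580 genes, and 121 were called in all 3 fits, 21 higher and 100 lower. The change was larger against mouse 2 in 1970 of the 2580. Of the 125 tested genes named below, 88 kept their direction but lost their call without CCl4 mouse 2, and those that kept it are named as such. The split of calls also moved with the scaling. Under library totals in place of TMM 488 genes were higher and 3220 lower, so 13.2% of the calls were higher against 45.3% with TMM, and the median of all genes was -0.30 on the log2 scale against 0.04. No called gene changed sign between the scalings.

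**Figure D1:**
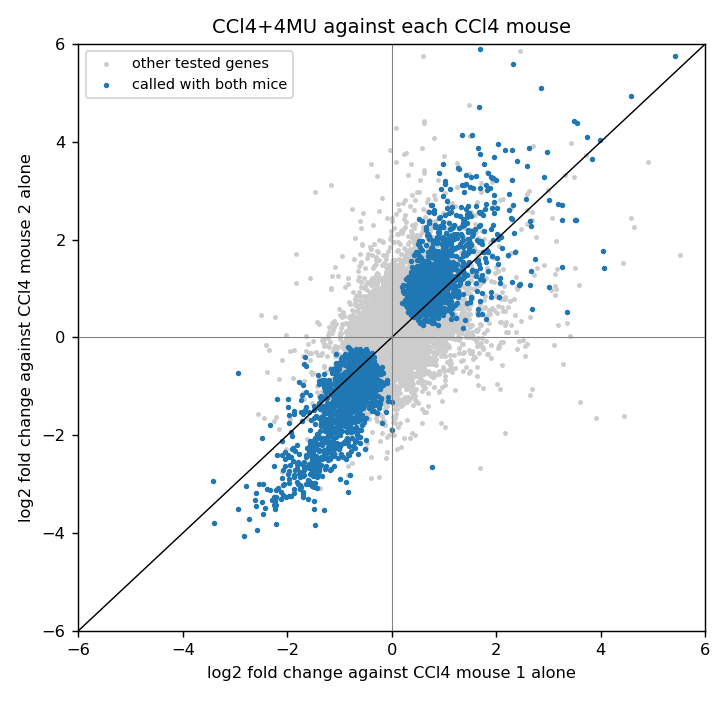
Log2 fold change of every tested gene in CCl4+4MU against CCl4 mouse 1 alone (horizontal axis) and against CCl4 mouse 2 alone (vertical axis), with the 2580 genes called against both mice in blue and the line of equal change in black. Most blue points lie in the lower left and upper right and further from 0 on the vertical axis, and 17 genes lie outside the axes, 5 of them called.

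**Figure D2:**
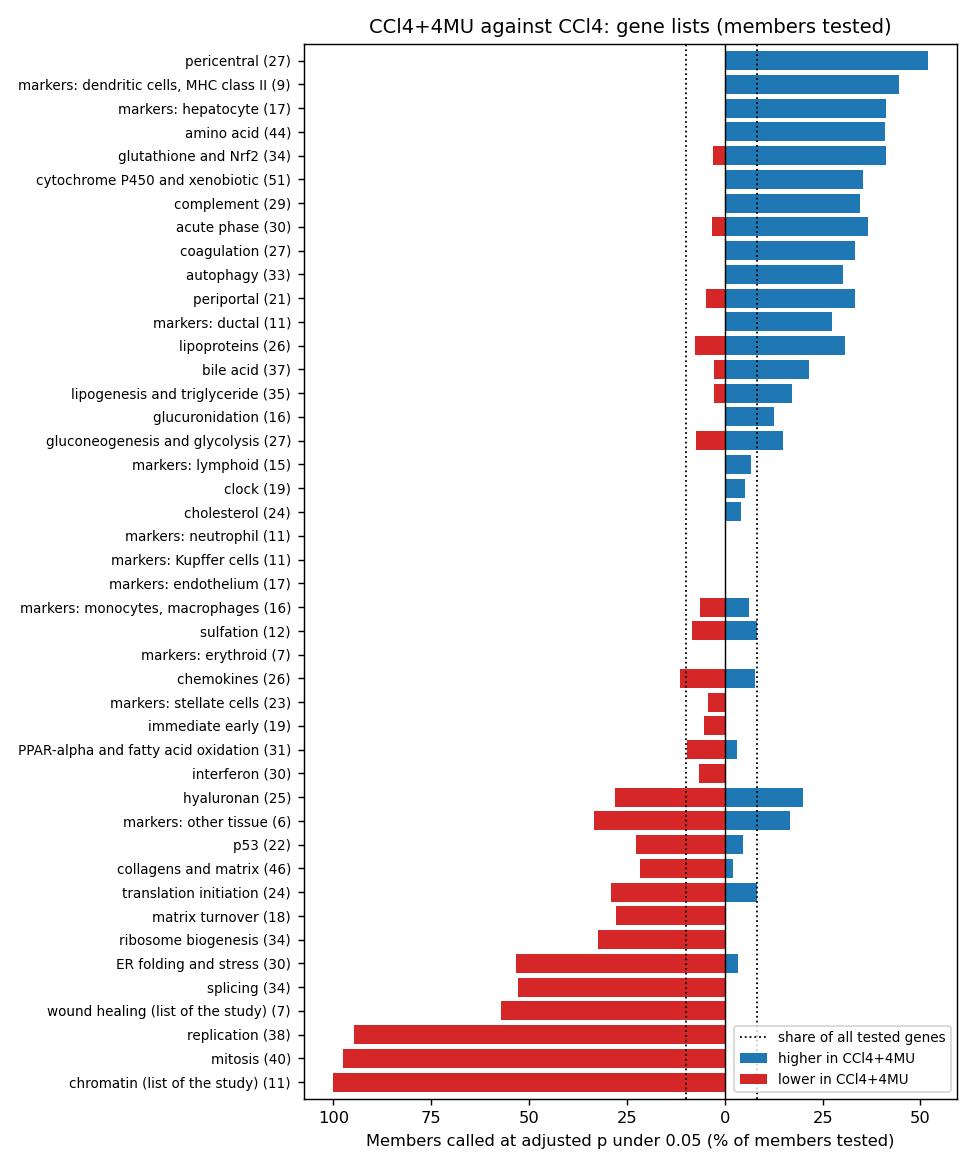
Members of each of 44 gene lists called lower (red, to the left) or higher (blue, to the right) in CCl4+4MU against CCl4, as a percentage of the members tested, whose number stands in parentheses. The dotted lines mark the shares over all tested genes, 8.28% higher and 10% lower, and the bars to the left are longest for the 11 chromatin genes that the study chose on these samples, mitosis and replication.

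Of 40 mitotic genes tested (spindle, kinetochore, condensin and mitotic kinases), 39 were lower and none higher, with a median log2 fold change of -1.94. The summed level of the list was 1011 and 1941 CPM in the 2 CCl4 mice and 174 to 680 CPM in CCl4+4MU, so the groups did not overlap. It was 52.3 to 68 CPM in control livers, below every CCl4+4MU mouse. Of 38 genes of DNA replication and deoxynucleotide synthesis, 36 were lower, with a median of -2.09 and summed levels of 1107 and 2095 against 301 to 623 CPM. Controls summed to 253 to 297 CPM. With CCl4 mouse 1 alone the medians were -1.40 for mitosis and -1.50 for replication, but 1 and 7 members passed the test.

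The window from 250 bases before to 50 bases after the start was searched in these genes for letters known from cell cycle promoters, on both strands. These are the CCAAT box bound by NF-Y, the cell cycle homology region TTTGAA and its rarer form TTCGAA, and the E2F-type GCGGGAA. Sequences are from RefSeq on GRCm38.p6, whereas the counts were made on GRCm39. Windows were found for 34 of the 40 mitotic genes, 37 windows in all. CCAAT stood in 30 of the 37 (81.1%) against 37.4% of all 32851 windows, and TTTGAA in 28 (75.7%) against 17.9%. TTCGAA stood in 3 (8.11% against 1.56%) and GCGGGAA in 1 (2.70% against 4.60%). The 37 windows of the replication genes were of another make: GCGGGAA stood in 13 (35.1%), CCAAT in 21 (56.8%), TTTGAA in 5 (13.5%) and TTCGAA in 2 (5.41%). A match is a description of the letters and not a bound site. Aurka (chr2:172370521-172370820, minus strand) and Kif11 (chr19:37376132-37376431, plus strand) are shown, because both carry CCAAT and TTTGAA near the start and both fell. The window of each is read along the gene, with matches in capitals, and a match on the opposite strand shows as ATTGG or TTCAAA.
Aurka: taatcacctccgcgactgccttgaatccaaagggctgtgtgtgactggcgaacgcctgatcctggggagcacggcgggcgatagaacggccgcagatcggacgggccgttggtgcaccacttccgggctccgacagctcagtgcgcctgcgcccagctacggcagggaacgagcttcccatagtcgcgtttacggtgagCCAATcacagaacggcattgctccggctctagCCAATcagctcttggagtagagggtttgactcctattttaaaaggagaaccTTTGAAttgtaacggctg
Kif11: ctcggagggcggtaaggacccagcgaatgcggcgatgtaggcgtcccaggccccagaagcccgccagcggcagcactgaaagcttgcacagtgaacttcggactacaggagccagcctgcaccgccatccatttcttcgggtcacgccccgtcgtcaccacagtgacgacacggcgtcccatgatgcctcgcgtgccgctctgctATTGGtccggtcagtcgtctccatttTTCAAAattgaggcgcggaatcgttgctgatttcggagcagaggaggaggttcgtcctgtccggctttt

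Aurka, the kinase of centrosomes and spindle poles, stood at 26.7 and 53.9 CPM in CCl4 and at 8.09, 8.98, 16.5 and 4.63 CPM in CCl4+4MU. It fell by 2.08 on the log2 scale (SE 0.34, edgeR adjusted p = 0.000706). Kif11, the motor that pushes spindle poles apart, stood at 15.8 and 39.7 against 5.68, 5.14, 8.06 and 2.35 CPM, and its log2 fold change was -2.39 (SE 0.419, edgeR adjusted p = 0.000953). In both genes CCl4 mouse 2 was the highest of the 6 and CCl4+4MU mouse 4 the lowest. Smc2, a condensin subunit that compacts chromosomes, had 38.3 and 80.3 against 3.81 to 13 CPM (log2 fold change -2.81), and Nusap1, which bundles spindle microtubules, had 17.1 and 38 against 3.17 to 8.39 CPM (-2.35). Smc2 also passed the test against CCl4 mouse 1 alone (-2.21, edgeR adjusted p = 0.0416), which Kif11 (-1.60, edgeR adjusted p = 0.0853) did not.

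Among the genes of replication, Pcna, the sliding clamp of DNA polymerase, stood at 91.4 and 193 CPM in CCl4 and at 29.9, 30.9, 51.3 and 28.4 CPM in CCl4+4MU. Control livers had 24.4 to 29.7 CPM. Its log2 fold change against CCl4 was -2.02 (SE 0.289, edgeR adjusted p = 0.000523). The lowest CCl4 mouse thus lay well above the highest CCl4+4MU mouse, CCl4+4MU mouse 3. Mcm4 and Mcm7, subunits of the replicative helicase, had log2 fold changes of -2.82 and -1.97 and did not overlap between the groups. Mcm4 stood at 38.1 and 78.3 against 5.62 to 12.5 CPM, and Mcm7 at 62.3 and 111 against 17.1 to 30.5 CPM. All 3 passed the test against CCl4 mouse 1 alone, with -1.41 for Pcna, -2.24 for Mcm4 and -1.51 for Mcm7.

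The 10 largest falls among called genes whose groups did not overlap and which averaged at least 5 CPM in the higher group were also mostly in genes of DNA replication and chromosomes. Hells, a chromatin remodeller of dividing cells (chr19:38919359-38960047, GRCm39, plus strand), headed them at 28.8 and 68.5 CPM in CCl4 against 4.52, 3.09, 7.17 and 1.67 CPM in CCl4+4MU. Its log2 fold change was -3.56 (SE 0.606, edgeR adjusted p = 0.000783), and -2.84 against mouse 1 alone. Cdc6, which loads the helicase, stood at 10.5 and 27.2 against 0.427 to 4.14 CPM (-3.40), and Rrm2, the regulated subunit of ribonucleotide reductase, at 44.2 and 108 against 3.13 to 20.2 CPM (-2.99). Cenph of the kinetochore, Esco2 of sister chromatid cohesion, Fignl1 and Rad51ap1 of recombination, Dtl of the replication checkpoint and the mitotic kinase Pbk made up 6 of the others, with log2 fold changes of -3.29 to -2.98. Sprr1a, a cornified envelope protein induced in stressed epithelia, was the exception among these 10, at 4.19 and 12.9 against 0.399 to 1.77 CPM (-3.21). Of the 10, Hells, Cenph, Fignl1, Rad51ap1 and Pbk were called against mouse 1 alone.

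**Figure D3:**
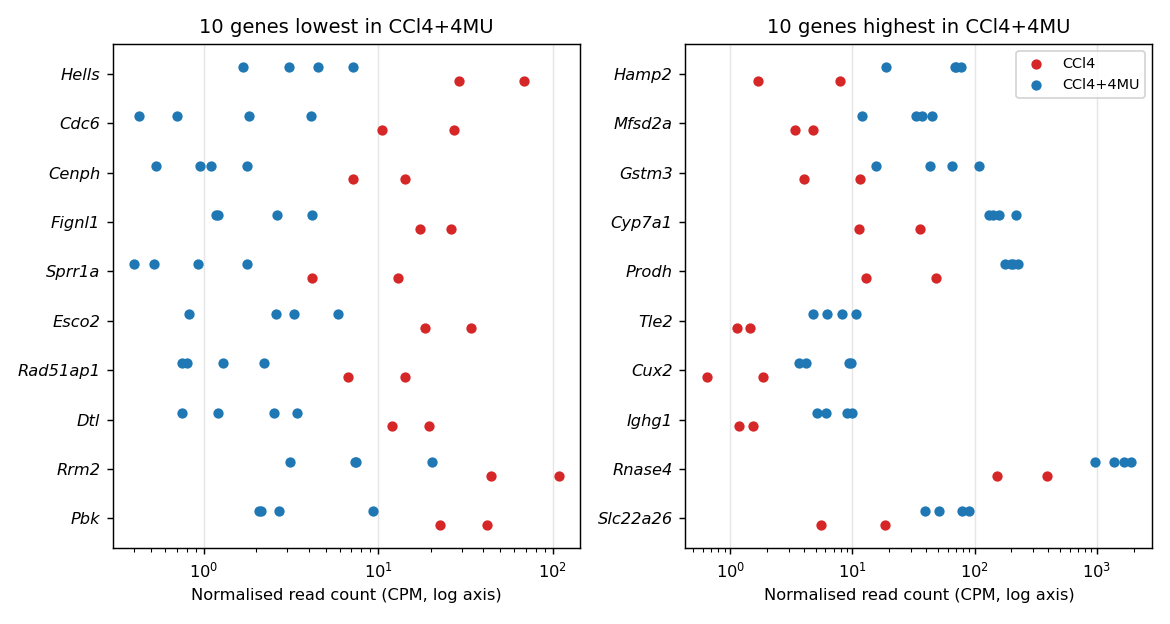
Normalised read count (CPM, log axis) of the 10 genes with the largest fall (left) and the 10 with the largest rise (right) in CCl4+4MU against CCl4 among called genes with at least 5 CPM on average in the higher group and no overlap between groups, predicted genes left out, 1 point per mouse, with CCl4 in red and CCl4+4MU in blue. The red and blue points of each gene do not overlap, as this choice required.

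The study lists 11 chromatin genes for 4MU, and all 11 were lower, with a median of -1.48. That list was chosen on these samples, so the count is not independent evidence of its direction. Hat1, the acetyltransferase of newly made histone H4, stood at 38.6 and 78.6 CPM in CCl4 and at 8.79 to 16.6 CPM in CCl4+4MU (log2 fold change -2.15, SE 0.327). Ezh2, the methyltransferase of the Polycomb complex, stood at 18.3 and 33.6 against 6.62 to 11.9 CPM (-1.48, SE 0.254). The summed level of the 11 genes was 200 and 362 CPM in CCl4 and 58.8 to 103 CPM in CCl4+4MU, and in controls 77.8 to 88 CPM. Against mouse 1 alone 2 of the 11 were called, Hat1 (-1.58) among them.

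Of 34 splicing factors and core spliceosome genes, 18 were lower and none higher, with a median of -0.57, and 4 were lower against mouse 1 alone. Srsf3, an SR protein of splice site choice, stood at 159 and 145 CPM in CCl4 and at 58.2, 62.6, 82.5 and 47.5 CPM in CCl4+4MU (log2 fold change -1.27, SE 0.222). Here CCl4 mouse 1 was the higher of the 2, and the call held against it alone (-1.37). Hnrnpab, an mRNA-binding hnRNP, stood at 190 and 244 against 88.7 to 121 CPM (-1.09, SE 0.177), and was lower against mouse 1 alone too (-0.93). Of 34 genes of ribosome biogenesis 11 were lower, with a median of -0.31, and 1 against mouse 1 alone, Dkc1 (-1.17). Dkc1, the pseudouridine synthase of ribosomal RNA and telomerase, stood at 25.7 and 32.5 against 9.5 to 13.9 CPM (-1.32, SE 0.206), and Nop56, a core protein of the nucleolar methylation complex, at 29.4 and 50.1 against 13.6 to 21.1 CPM (-1.18, SE 0.224). Of 24 translation initiation genes, 2 were higher and 7 lower, with a median of -0.34 and no call against mouse 1 alone. Eif3b, a scaffold of initiation factor 3, moved by -0.49 (SE 0.138), from 151 and 166 to 104 to 121 CPM. Under library totals none of the 24 was higher and 15 were lower, and without CCl4+4MU mouse 4 the count lower was 1.

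Of 30 genes of ER folding and the unfolded protein response, 16 were lower and 1 was higher, with a median of -0.81, and 14 of the 30 are named by the study on these samples, so that this count is not independent evidence either. The summed level was 11686 and 12159 CPM in CCl4 against 5870 to 7434 CPM in CCl4+4MU, and 6353 to 7655 CPM in controls. The 2 CCl4 mice were close to each other, and the median against mouse 1 alone was -0.71, with 3 members lower. Canonical ER stress promoters hold CCAAT followed after 9 bases by CCACG, the site of NF-Y with ATF6. This pair stood in 9 of the 27 windows found (33.3%), against 0.119% of all windows, and CCAAT on its own, which is part of the pair, in 22 (81.5%). Of the 9 genes with the pair (Calr, Canx, Creld2, Dnajc3, Ero1b, Hsp90b1, Hspa5, Pdia6 and Syvn1), 7 were lower, with a median of -0.89. Of the 18 whose window did not hold it, 7 were lower and 1 was higher, with a median of -0.26. Of the 3 without a window 2 were lower, with a median of -1.37. The largest fall of the list, in Dnajc10 (-1.48), was in a gene whose window did not hold the pair. The differences between these medians were not tested. Pdia6 (chr12:17266339-17266638, plus strand), Creld2 (chr15:88819396-88819695, plus strand) and Hsp90b1 (chr10:86705395-86705694, minus strand) are shown, again on GRCm38.p6 from RefSeq, to place the pair, in capitals, in genes that fell. On the opposite strand the pair reads CGTGG, 9 bases and ATTGG, and Hsp90b1 holds it in both forms.
Pdia6: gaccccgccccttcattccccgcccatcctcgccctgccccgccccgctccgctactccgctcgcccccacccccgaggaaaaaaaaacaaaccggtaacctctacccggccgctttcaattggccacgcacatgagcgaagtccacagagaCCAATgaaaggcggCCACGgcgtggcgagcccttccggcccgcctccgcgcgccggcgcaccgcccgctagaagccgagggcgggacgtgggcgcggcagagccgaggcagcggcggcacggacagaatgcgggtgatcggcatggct
Creld2: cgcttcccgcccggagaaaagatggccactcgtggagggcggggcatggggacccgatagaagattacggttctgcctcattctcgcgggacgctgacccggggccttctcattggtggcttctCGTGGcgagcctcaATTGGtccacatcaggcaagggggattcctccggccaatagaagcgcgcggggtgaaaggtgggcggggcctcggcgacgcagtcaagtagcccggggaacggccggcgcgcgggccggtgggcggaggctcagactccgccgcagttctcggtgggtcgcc
Hsp90b1: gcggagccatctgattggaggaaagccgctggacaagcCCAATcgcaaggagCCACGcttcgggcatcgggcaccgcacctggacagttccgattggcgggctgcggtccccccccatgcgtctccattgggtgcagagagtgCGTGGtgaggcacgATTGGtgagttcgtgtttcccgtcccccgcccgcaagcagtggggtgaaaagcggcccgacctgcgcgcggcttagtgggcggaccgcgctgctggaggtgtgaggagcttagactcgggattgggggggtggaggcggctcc

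Hsp90b1, the HSP90 chaperone of the ER, stood at 1392 and 1463 CPM in CCl4 and at 475, 647, 619 and 423 CPM in CCl4+4MU, with a log2 fold change of -1.40 (SE 0.273, edgeR adjusted p = 0.00177). Pdia6, a disulphide isomerase, stood at 1127 and 988 against 449, 555, 606 and 438 CPM (-1.05, SE 0.188, edgeR adjusted p = 0.00102). Both were also lower against CCl4 mouse 1 alone (-1.39 and -1.17), as was Dnajc10 (-1.36). Dnajc10, a reductase that unfolds misfolded proteins, stood at 133 and 163 against 42.5 to 60.9 CPM (-1.48), and Creld2, secreted on ER stress, at 70.8 and 108 against 25.9 to 41.7 CPM (-1.41). The member that rose was Chac1, which breaks down glutathione and is a target of ATF4. It stood at 2.24 and 1.17 against 6.45, 14.8, 2.92 and 11.6 CPM (log2 fold change 2.4, edgeR adjusted p = 0.0227), and lost its call against either CCl4 mouse alone (1.96 and 2.91) and without CCl4+4MU mouse 2 (2.02).

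**Figure D4:**
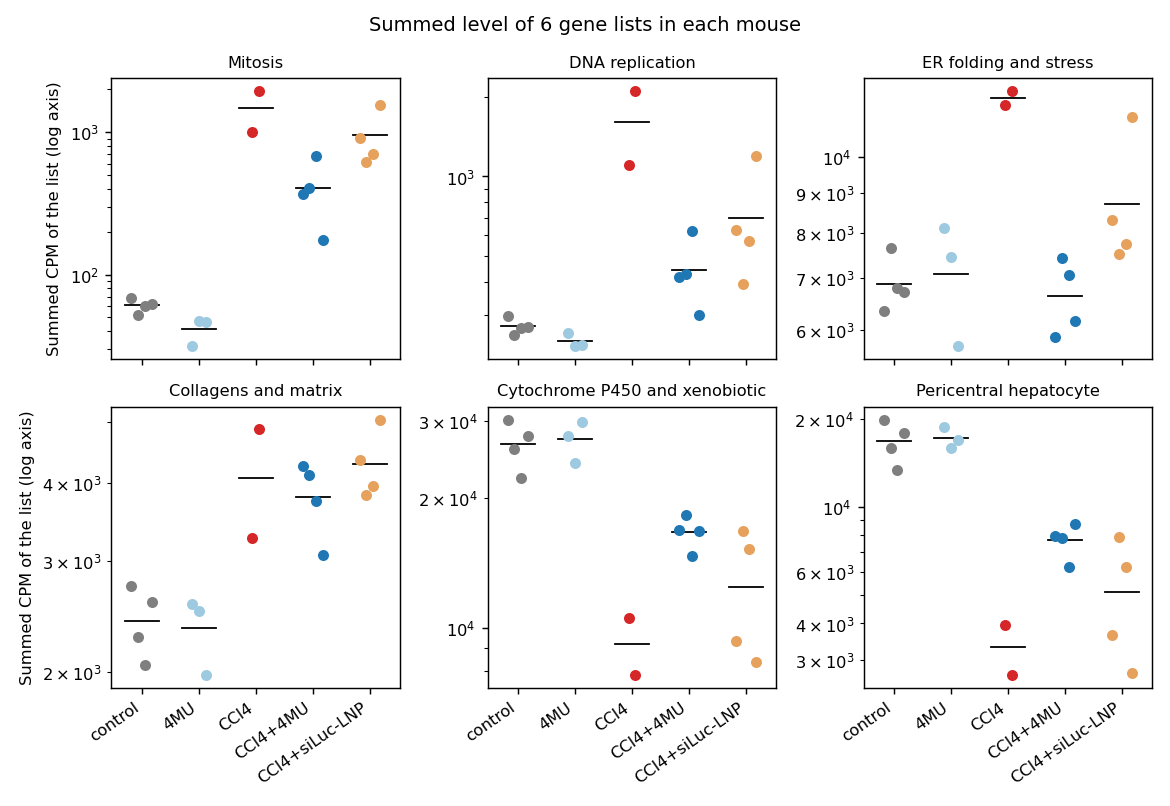
Summed CPM (log axis) of 6 gene lists in each mouse of 5 groups, with points for mice and a bar for the group mean. In mitosis, replication and ER folding both CCl4 mice lie above the 4 CCl4+4MU mice, and in the cytochrome P450 and pericentral lists below them, while CCl4+4MU mice stay below controls in the pericentral list. In the collagen and matrix list the CCl4 and CCl4+4MU mice overlap.

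Of the hyaluronan genes, 8 of 33 were under the count minimum, the 3 synthases among them. Has2, the synthase of activated stellate cells, had 0 and 2 counts in the CCl4 libraries and 0 in each of the 4 CCl4+4MU libraries. Has1 had 1 and 11 counts against 0, 1, 1 and 3, and Has3 had 0 and 1 against 4, 5, 12 and 8. The hyaluronidase Cemip had 3 and 2 counts against 0, 1, 3 and 10. A difference in Has2 or Cemip was not detectable at this depth, where 3 counts correspond to 0.102 to 0.164 CPM in these 6 libraries, and none of these 4 genes was tested.

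Of the 25 hyaluronan genes tested 5 were higher and 7 lower, with a median of -0.07. The genes that rose were 4 of the inter-alpha-inhibitor family of serum proteins and 1 hydrolase. Those that fell included Pgm3, Gfpt1 and Uap1, enzymes of the route to UDP-N-acetylglucosamine. Pgm3, the mutase of that route (chr9:86424316-86454680, GRCm39, minus strand), stood at 51.9 and 64.6 CPM in CCl4 and at 18.5, 19.5, 21.5 and 17.4 CPM in CCl4+4MU. Its log2 fold change was -1.60 (SE 0.207, edgeR adjusted p = 0.000221), and -1.46 against mouse 1 alone (edgeR adjusted p = 0.0137), the 1 call of the list without mouse 2. The first enzyme of the route, Gfpt1, stood at 32.7 and 54.6 against 18.2 to 26.1 CPM (-0.96), and the last, Uap1, at 37 and 46.9 against 23 to 29.6 CPM (-0.71). Ugp2, which makes the UDP-glucose that precedes UDP-glucuronic acid, stood at 416 and 505 against 208 to 356 CPM (-0.71). Ugdh, which oxidises UDP-glucose to UDP-glucuronic acid, stood at 136 and 119 against 112 to 132 CPM (-0.07, edgeR adjusted p = 0.916). Pgm3, Gfpt1, Uap1 and Ugp2 lay lower in all 4 CCl4+4MU mice than in both CCl4 mice, and Ugdh overlapped. Such non-overlap held in 44.4% of all tested genes. Gfpt1 lost its call without CCl4+4MU mouse 1 (-0.97), 2 (-0.91) or 4 (-0.97), and Ugp2 without CCl4 mouse 1 (-0.86) or CCl4+4MU mouse 2 (-0.72), 3 (-0.73) or 4 (-0.59). In control livers Pgm3 had 8.16 to 10.2 CPM, below the CCl4+4MU mice.

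Heavy chains of inter-alpha-inhibitor are transferred to hyaluronan. Itih3 stood at 965 and 760 CPM in CCl4 and at 2113, 2406, 1414 and 2276 CPM in CCl4+4MU (log2 fold change 1.25, SE 0.258), and Ambp, which encodes bikunin, the light chain, at 1824 and 1529 against 3049 to 3886 CPM (1.02, SE 0.228). Itih1 (0.68) and Itih4 (0.76) were called too, but not under library totals (0.36 and 0.43), nor Itih4 without CCl4+4MU mouse 2 (0.67) or 4 (0.72). The hydrolase Hyal2 stood at 36 and 30 against 47.4 to 61.3 CPM (0.64), but lost its call under library totals (0.31) and without CCl4+4MU mouse 4 (0.54), and Hyal1 at 7.64 and 8.03 against 10.3 to 12.1 CPM was not called (0.48, edgeR adjusted p = 0.109). Under library totals 2 of the 25 were higher.

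Among the receptors, Hmmr, which is also a spindle protein and stands on the mitosis list, was at 23.4 and 52.9 CPM in CCl4 and at 10.4, 10.9, 20.4 and 3.42 CPM in CCl4+4MU (-1.76, edgeR adjusted p = 0.00557). Cd44, the main receptor of hyaluronan on leucocytes and mesenchymal cells, was at 22.2 and 31.8 against 14.8 to 23 CPM and was not called (-0.56, edgeR adjusted p = 0.157). Its groups overlapped, and under library totals its fall of 0.91 on the log2 scale passed. The proteoglycan versican (Vcan), which binds hyaluronan in matrix, was at 1.27 and 3.58 against 0.178 to 0.731 CPM (-2.42), and Cemip2, a membrane relative of Cemip, at 12.1 and 16.9 against 7.44 to 8.5 CPM (-0.84). Cemip2 lost its call without any 1 of the 4 CCl4+4MU mice (-0.90 to -0.81).

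The enzymes that conjugate 4MU include UDP-glucuronosyltransferases and sulphotransferases. Of 16 UDP-glucuronosyltransferase genes 2 were higher and none lower, with a median of 0.65. Ugt1a6a stood at 1.65 and 2.03 CPM in CCl4 and at 9.98, 7.48, 5.43 and 6.3 CPM in CCl4+4MU (log2 fold change 1.97, SE 0.428, edgeR adjusted p = 0.00348), against 10.2 to 15.8 CPM in controls. Its isoforms share exons with the other genes of the Ugt1a locus, so its count is uncertain. Ugt2b1 stood at 115 and 64.5 against 108 to 167 CPM (0.73), with overlapping groups, and lost its call under library totals (0.43) and without CCl4+4MU mouse 1 (0.67), 2 (0.68) or 3 (0.67). Of 12 sulphation genes, 1 was higher and 1 lower, with a median of 0.88. Over all tested genes 8.28% were higher and 10% lower. Sult1a1, the phenol sulphotransferase, rose from 271 and 178 to 466 to 686 CPM (1.29, SE 0.244), and Papss1, which makes the sulphate donor, fell from 20.7 and 29.6 to 13.8 to 15.4 CPM (-0.77, SE 0.203). Neither list had a member called against CCl4 mouse 1 alone. With CCl4 mouse 2 alone 3 glucuronosyltransferase and 5 sulphation genes were higher, and without the low-count filter 7 of the 16 and 7 of the 12 were.

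**Figure D5:**
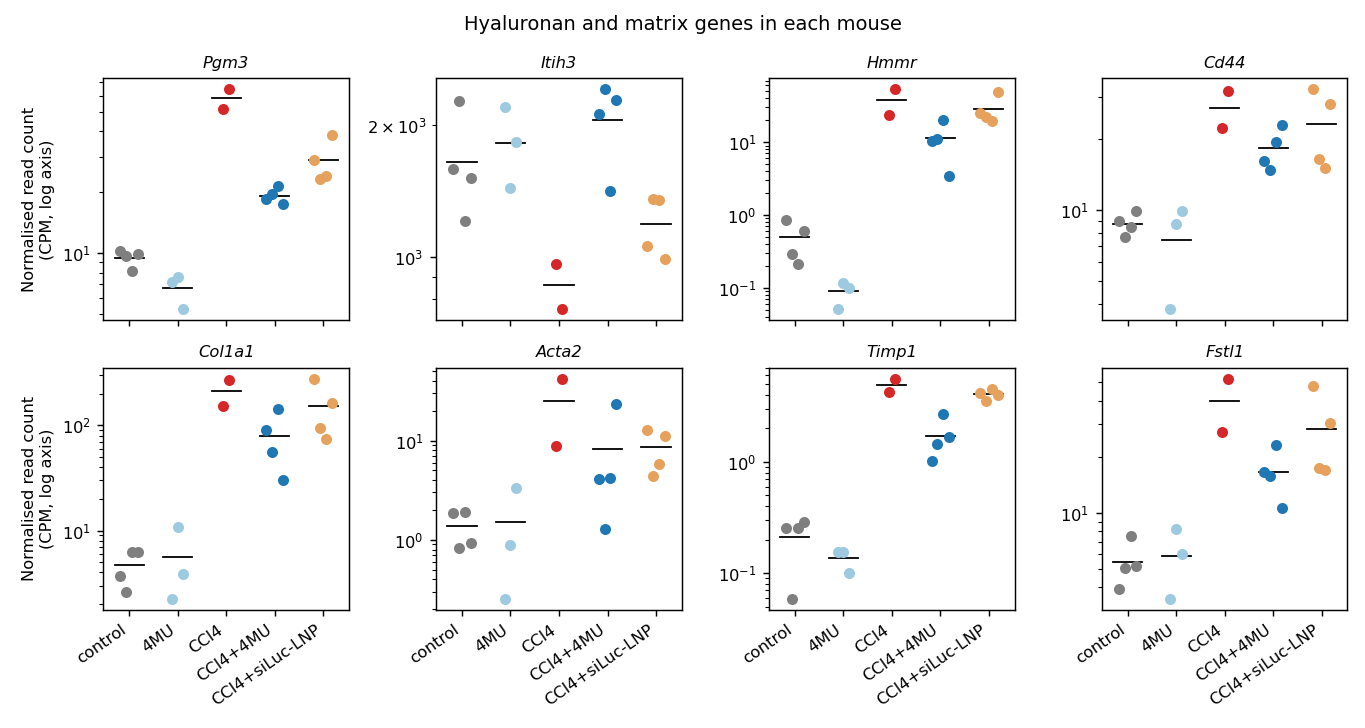
Normalised read count (CPM, log axis) of 8 hyaluronan and matrix genes in each mouse of 5 groups, with points for mice and a bar for the group mean. Pgm3 and Timp1 are lower and Itih3 is higher in all 4 CCl4+4MU mice than in both CCl4 mice, while Acta2 and Cd44 overlap between these groups.

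Of 46 collagen chains, collagen enzymes and matrix glycoproteins, 10 were lower and 1 was higher, with a median of -0.48. None was called against CCl4 mouse 1 alone, where the median was -0.16, and 16 were lower with mouse 2 alone and 4 without CCl4+4MU mouse 4. Under library totals 22 were lower. The summed level of the list overlapped, at 3264 and 4871 CPM in CCl4 and 3073 to 4255 CPM in CCl4+4MU. Col1a1, a chain of type I collagen, stood at 154 and 273 CPM in CCl4 and at 91, 56.3, 143 and 30.4 CPM in CCl4+4MU, with a log2 fold change of -1.41 (SE 0.523) that missed the threshold (edgeR adjusted p = 0.0606). It passed under library totals (-1.75), by limma-voom (-1.57) and without CCl4+4MU mouse 3 (-1.85). The log2 fold change of Col1a1 was smaller without CCl4 mouse 2 (-0.97) and without CCl4+4MU mouse 4 (-1.14). All 4 CCl4+4MU mice lay below both CCl4 mice and far above the 2.6 to 6.32 CPM of controls. The CCl4+4MU and CCl4 mice did not overlap in 44.4% of all tested genes. Col3a1 at 196 and 297 against 54.9 to 227 CPM overlapped and was not called (-0.76, edgeR adjusted p = 0.255). Serpinh1, the chaperone of procollagen, overlapped as well, at 33.9 and 69.8 against 16.8 to 34.1 CPM, and was lower (-1.18, SE 0.312). Thrombospondin-1 (Thbs1), an activator of TGF-beta, stood at 3.55 and 14.5 against 0.99 to 1.55 CPM (-2.81, SE 0.609), and -1.50 against mouse 1 alone. The member that rose was Col5a3, at 7.25 and 6.14 against 13.8 to 18.2 CPM (1.32), a level close to the 12.6 to 18.8 CPM of controls.

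Of 18 genes of matrix turnover 5 were lower, with a median of -0.21 and no call against mouse 1 alone. Timp1, the inhibitor of metalloproteinases, stood at 4.28 and 5.58 CPM in CCl4 and at 1.03, 1.45, 2.7 and 1.67 CPM in CCl4+4MU (log2 fold change -1.52, SE 0.337, edgeR adjusted p = 0.00411). Plau, the urokinase, stood at 14.8 and 17.3 against 2.54 to 4.06 CPM (-2.28, SE 0.49). Both genes lay lower in all 4 CCl4+4MU mice, where 44.4% of all tested genes did not overlap between the groups. Controls had 0.531 to 1.43 CPM of Plau.

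Of 23 stellate cell and myofibroblast genes 1 was lower, Fstl1, with a median of -0.37 over the list. Among all tested genes 10% were lower. Fstl1, a secreted glycoprotein of activated stellate cells, stood at 27.3 and 52.2 CPM in CCl4 and at 16.6, 15.7, 23.1 and 10.6 CPM in CCl4+4MU (-1.27, SE 0.368, edgeR adjusted p = 0.0193). It lost its call with mouse 1 alone (-0.76) and without CCl4+4MU mouse 4 (-1.11). Acta2, the smooth muscle actin of myofibroblasts, stood at 8.71 and 41.7 against 4.09, 1.3, 4.18 and 23.2 CPM and was not called (-1.61, edgeR adjusted p = 0.167). Its highest treated mouse was CCl4+4MU mouse 4, and without that mouse the fall was 2.97 and passed the test. Without CCl4 mouse 2 the log2 fold change of Acta2 was -0.10, so the fall rested on that mouse. The stellate cell markers Lrat, Reln, Des and Pdgfrb were not called, with log2 fold changes of -0.50 to -0.19. Without CCl4+4MU mouse 4 Des was lower (-0.98), whereas without CCl4 mouse 2 its log2 fold change was -0.09.
The list of 7 wound and myeloid migration genes was chosen by the study on these samples, so its count of 4 lower, with a median of -1.35, is not independent evidence. Ccl2, the chemokine that draws monocytes, stood at 2.38 and 6.89 against 0.349 to 1.25 CPM (-2.63, SE 0.577), and none of the 7 was called against mouse 1 alone.

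Of 51 xenobiotic genes (cytochromes P450, flavin monooxygenases and their receptors), 18 were higher and none lower, with a median of 0.93. None was called against CCl4 mouse 1 alone, where the median was 0.65, and under library totals 14 were higher and 4 lower. The summed level was 10578 CPM at the highest in CCl4 against 14666 to 18266 CPM in CCl4+4MU, and 22143 to 30205 CPM in controls. Cyp2e1, the P450 that activates CCl4 (chr7:140343652-140355167, GRCm39, plus strand), stood at 482 and 214 CPM in CCl4 and at 2177, 2064, 1166 and 1582 CPM in CCl4+4MU. It rose by 2.33 on the log2 scale (SE 0.451, edgeR adjusted p = 0.00168), and the rise against mouse 1 alone was 1.83 (edgeR adjusted p = 0.083). Every treated mouse lay above both CCl4 mice and below the 4331 to 7600 CPM of controls. Cyp2d22, a further P450, stood at 106 and 57.2 against 178 to 250 CPM (1.46). Cyp2c38 stood at 3.89 and 3.92 against 8.76 to 18.2 CPM (1.77), far below the 119 to 189 CPM of controls, and its near copies in the Cyp2c family make its count uncertain. Cyp3a11, induced through PXR, was at 1763 and 1911 against 2282 to 2634 CPM and was not called (0.41, edgeR adjusted p = 0.367).

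Of 27 genes of pericentral hepatocytes, the zone that CCl4 injures, 14 were higher and none lower, with a median of 1.03. Against mouse 1 alone 1 was called and the median was 0.79. Lgr5, a Wnt receptor component of the hepatocytes next to the central vein, was that gene, at 1.75 and 1.32 CPM in CCl4 and at 5.25, 6.08, 4.69 and 4.38 CPM in CCl4+4MU (log2 fold change 1.73, SE 0.266, and 1.51 against mouse 1 alone). Its level in the 4 treated mice ran into the 4.57 to 6.91 CPM of controls. Nr1i3, the xenobiotic receptor CAR, stood at 12.3 and 8.1 against 22.2 to 52.9 CPM (1.86). Of 21 periportal genes 7 were higher and 1 lower, with a median of 0.91 and no call against mouse 1 alone. Gls2, the liver glutaminase, stood at 186 and 49.1 against 291 to 347 CPM (1.46). The summed pericentral level was 2670 and 3966 CPM in the 2 CCl4 mice, 6224 to 8742 CPM in CCl4+4MU and 13309 to 19833 CPM in controls.

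Of 34 genes of glutathione and the Nrf2 response, 14 were higher and 1 lower, with a median of 0.33. Gstm1, a glutathione transferase, stood at 651 and 422 CPM in CCl4 and at 1469 to 2563 CPM in CCl4+4MU (1.84), and catalase (Cat) at 1084 and 663 against 1626 to 2133 CPM (1.12). Nqo1, a quinone reductase and target of Nrf2, stood at 8.57 and 5.84 against 14.8 to 18.8 CPM (1.24). All 3 lay in the 4 treated mice above both CCl4 mice, in a comparison where 44.4% of all tested genes did not overlap. Of 44 genes of amino acid breakdown and the urea cycle, 18 were higher and none lower, with a median of 0.67. Prodh, the first enzyme of proline breakdown, stood at 48.2 and 12.9 against 200, 205, 177 and 228 CPM (2.73, SE 0.633). Mat1a, which makes S-adenosylmethionine, stood at 1312 and 638 against 2371 to 4524 CPM (1.81), and Haao of tryptophan breakdown at 220 and 80.3 against 357 to 470 CPM (1.41). CCl4 mouse 2 was the lowest of the 6 in these 3 genes, and neither this list nor the glutathione list had a call against mouse 1 alone. With mouse 2 alone 27 of the 44 amino acid genes were higher.

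Of 37 genes of bile acid synthesis and transport, 8 were higher and 1 lower, with a median of 0.41, and 13 were higher with mouse 2 alone. Cyp7a1, the rate-limiting enzyme of bile acid synthesis from cholesterol (chr4:6265612-6275633, GRCm39, minus strand), stood at 35.6 and 11.3 CPM in CCl4 and at 140, 159, 130 and 218 CPM in CCl4+4MU. Its log2 fold change was 2.79 (SE 0.633, edgeR adjusted p = 0.00469), and 2.16 against mouse 1 alone (edgeR adjusted p = 0.139). Controls ranged from 86.6 to 387 CPM, around the treated mice. Slc10a1 (NTCP), which takes up bile acids from the blood, stood at 184 and 225 against 520 to 732 CPM (1.68, SE 0.281) and was the member called against mouse 1 alone (1.81). The member that fell was Abcg2, an efflux pump, from 51.9 and 59.6 to 26 to 36.4 CPM (-0.81, SE 0.156).

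Of 35 genes of lipogenesis and triglyceride storage, 6 were higher and 1 lower, with a median of 0.54, and Plin4, a lipid droplet protein, stood at 0.243 and 0.452 against 1.89 to 2.88 CPM (2.75), without a call when CCl4 mouse 1 was left out (2.39). Of 24 cholesterol genes 1 was higher, the sterol reductase Tm7sf2, at 36.9 and 27.5 against 45.6 to 118 CPM (1.28), and it was no longer called under library totals (0.97), nor without CCl4 mouse 1 (1.50) or CCl4+4MU mouse 1 (1.26) or 4 (1.02). Of 26 lipoprotein genes 8 were higher and 2 lower, with a median of 0.65. Apoc1 stood at 729 and 397 against 1855 to 2248 CPM (1.84), and Apoa2, of high-density lipoprotein, at 1883 and 1230 against 3665 to 5402 CPM (1.46). Of 31 genes of PPAR-alpha and fatty acid oxidation 1 was higher and 3 were lower, with a median of -0.07. For these lists the shares to compare with are those over all tested genes, 8.28% higher and 10% lower. Vnn1, a pantetheinase and target of PPAR-alpha, stood at 19.7 and 44.3 against 6.5 to 9.25 CPM (-1.98), and Hadhb, of the mitochondrial trifunctional protein, at 207 and 269 against 108 to 165 CPM (-0.86). The third, the fatty acid carrier Fabp1, rested on 1 mouse: CCl4 mouse 2 had 2793 CPM, CCl4 mouse 1 had 1104 CPM and the treated mice 1012 to 1250 CPM. Its log2 fold change was -0.79, and 0.01 without CCl4 mouse 2, and the call was also lost without CCl4+4MU mouse 1 (-0.76), 2 (-0.76) or 4 (-0.84). Of 27 genes of gluconeogenesis and glycolysis, 4 were higher and 2 lower, with a median of 0.54. Pkm, the pyruvate kinase of dividing and non-parenchymal cells, stood at 63.8 and 86.4 against 27.2 to 39.4 CPM (-1.16). Of these 5 lists, 1 lipoprotein gene was higher and 1 gene of glycolysis lower against mouse 1 alone. With mouse 2 alone 3 lipogenesis genes were higher and 3 lower, and 5 genes of PPAR-alpha and fatty acid oxidation were lower.

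Complement and clotting factors are plasma proteins that hepatocytes secrete. Of 29 complement genes 10 were higher and none lower, with a median of 0.55, and of 27 clotting factors and inhibitors 9 and none, with a median of 0.41. Serping1, the C1 inhibitor, stood at 416 and 346 CPM in CCl4 and at 959, 1032, 778 and 907 CPM in CCl4+4MU (1.27, SE 0.223), and C1ra, a protease of the classical pathway, at 169 to 226 CPM in CCl4+4MU, above both CCl4 mice (0.98). Hrg, histidine-rich glycoprotein, stood at 650 and 382 against 1688, 2110, 983 and 1557 CPM (1.62, SE 0.325), and Hgfac, which activates hepatocyte growth factor, at 152 and 96.1 against 247 to 414 CPM (1.43). In each of these 4 genes CCl4+4MU mouse 3 was the lowest treated mouse and lay above both CCl4 mice. The groups did not overlap in 44.4% of all tested genes. Of 30 acute-phase and iron genes 11 were higher and 1 lower, with a median of 0.69. Saa4 stood at 159 and 123 against 276 to 440 CPM (1.24), and Lbp, which binds lipopolysaccharide, at 127 and 104 against 194 to 457 CPM (1.52). Hamp2, a paralogue of hepcidin that may share reads with Hamp, stood at 7.93 and 1.7 against 69.2, 77.9, 70.8 and 18.7 CPM (3.64, SE 0.91). Without CCl4 mouse 2 none of the 3 lists had a call, and with mouse 2 alone 15 complement genes were higher.

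Of 33 genes of autophagy and lysosome 10 were higher and none lower, with a median of 0.49. Map1lc3b, the LC3 protein of autophagosomes, stood at 68.4 and 49.7 CPM in CCl4 and at 95.1 to 157 CPM in CCl4+4MU (1.16). Under library totals 2 of the 33 were higher and 2 lower, none was called with mouse 1 alone and 4 were higher with mouse 2 alone. The 19 clock genes had a median of 0.71, but only 1 was higher and none lower. Over all tested genes 8.28% were higher and 10% lower. Of 22 p53 targets 1 was higher and 5 were lower, with a median of -0.45. Ccng1, cyclin G1, stood at 84.4 and 96 against 33.8 to 48.5 CPM (-1.08) and was lower against mouse 1 alone too (-1.01), and the kinase Plk3 rose from 7.69 and 8.1 to 14.2 to 38.6 CPM (1.63), though not past the threshold without CCl4 mouse 1 (1.58). Of 19 immediate early genes 1 was lower, Egr1, at 61 and 84.1 against 8.65 to 16.1 CPM (-2.77, edgeR adjusted p = 0.0425). It lost its call in each of the fits that left out 1 of the 6 mice (-3.04 to -2.55).

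The other genes among the 10 largest rises under the same limits were of mixed function. Rnase4, a secreted ribonuclease, stood at 390 and 151 CPM in CCl4 and at 1671, 1388, 959 and 1910 CPM in CCl4+4MU (2.45, SE 0.402), and was called against mouse 1 alone (1.90). Slc22a26, an organic anion transporter, stood at 18.6 and 5.5 against 39.4 to 90.7 CPM (2.44), Gstm3 at 11.5 and 4.03 against 15.7 to 108 CPM (2.91) and Tle2, a Groucho corepressor, at 1.46 and 1.13 against 4.8 to 10.7 CPM (2.53). Gstm3 lost its call without CCl4+4MU mouse 4 (2.43). Mfsd2a, which carries lysophospholipids, stood at 3.41 and 4.75 against 12, 33.1, 37 and 44.7 CPM (2.95), without a call when CCl4 mouse 1 was left out (2.73). Cux2, a homeobox factor that is higher in female than in male mouse liver, stood at 1.85 and 0.641 against 3.64 to 9.77 CPM (2.47, edgeR adjusted p = 0.0418) and lost its call without CCl4 mouse 1 (3.37) or CCl4+4MU mouse 1 (2.24) or 4 (2.27).

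Markers of the cell types in the homogenate moved as follows. Of 17 hepatocyte markers tested 7 were higher, with a median of 0.63, 3 were higher under library totals and none against mouse 1 alone. Their summed level was 191030 and 119790 CPM in CCl4 mice 1 and 2 and 215838 to 256505 CPM in CCl4+4MU, and it therefore moved in the same direction as the hepatocyte lists above. Ahsg, fetuin-A, stood at 10141 and 7423 against 13953 to 16513 CPM (0.79), and Tat, tyrosine aminotransferase, at 466 and 242 against 610 to 1597 CPM (1.80). None of 11 Kupffer cell markers was called (1 at an unadjusted p under 0.05, and none by DESeq2 or limma-voom), and their summed level overlapped, at 436 to 491 against 400 to 647 CPM. None of 17 endothelial markers was called by edgeR (3 unadjusted, 1 by DESeq2 and 2 by limma-voom), with sums of 243 to 248 against 205 to 302 CPM. None of 11 neutrophil markers was called by any of these counts, with sums of 31.8 to 44.9 against 34.6 to 66.4 CPM, and none of 7 red cell markers (1 unadjusted), with sums of 224 to 243 against 75.1 to 444 CPM. The part of cell makeup in the hepatocyte and cell division results was not tested.

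Of 16 markers of infiltrating monocytes and scar macrophages 1 was higher and 1 lower, with a median of -0.30 and sums of 695 to 717 against 690 to 1104 CPM. Itgax (CD11c) stood at 4.43 and 5.01 CPM in CCl4 and at 10.9, 11, 20.1 and 6.76 CPM in CCl4+4MU (1.37), and Ccr2, the receptor of Ccl2, at 11.8 and 19.1 against 4.06 to 9.35 CPM (-1.16). Itgax lost its call without CCl4 mouse 1 (1.27) or CCl4+4MU mouse 3 (1.02), and Ccr2 without CCl4+4MU mouse 1 (-1.22), 2 (-1.16) or 4 (-0.97). Of 26 chemokines and receptors 2 were higher and 3 lower, with a median of -0.08. Over all tested genes 8.28% were higher and 10% lower. Of 30 interferon-stimulated genes 2 were lower, with a median of -0.16, and Rsad2 (viperin) was the first of them, at 18.2 and 15.7 against 3.95 to 7.62 CPM (-1.51). Of 9 dendritic cell markers, which include MHC class II, 4 were higher, with a median of 1.00. H2-Ab1 stood at 13.8 and 9.08 against 40.6, 19.5, 37.7 and 80.3 CPM (1.96), and Cd74, the invariant chain, at 59.6 and 30.5 against 135, 57.3, 110 and 212 CPM (1.52). Cd74 overlapped through CCl4+4MU mouse 2 and lost its call without mouse 4 (1.17), as did all of the 4 but H2-Ab1. Of 15 lymphoid markers 1 was higher, Igkc, the kappa light chain, at 9.93 and 9.57 against 19.6 to 32.4 CPM (1.35), and Ighg1, the heavy chain of IgG1, which is among those 10 rises, was at 1.17 and 1.54 against 5.14 to 9.85 CPM (2.46). None of these lists had a call without CCl4 mouse 2.

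Of 11 ductal markers 3 were higher, with a median of 1.40. All 3 lost their call without CCl4+4MU mouse 4, and in 2 of them that mouse stood far above the other treated mice. None was called with either CCl4 mouse alone. Muc1 stood at 1.22 and 0.678 CPM in CCl4, at 1.63, 0.748 and 0.739 CPM in CCl4+4MU mice 1 to 3 and at 54.2 CPM in mouse 4. Mmp7 stood at 1.02 and 0.527 CPM in CCl4, at 0.817, 0.648 and 0.628 CPM in mice 1 to 3 and at 44 CPM in mouse 4. Their log2 fold changes of 3.94 and 3.91 were 0.15 and -0.13 without mouse 4. Krt19, a keratin of bile ducts, was not called (2.44, edgeR adjusted p = 0.145) and had the same shape, with 0.645 to 2.51 CPM in mice 1 to 3 and 92.6 CPM in mouse 4. Without mouse 4 its log2 fold change was -1.61, still not called, and that of Krt7, at 4.45 CPM in mouse 4 and 1.03 to 1.26 CPM in mice 1 to 3, was -1.97 and passed the test, against -1.17 with it. Sox9 stood at 4.95 CPM in mouse 4, within the other 3. Of 6 markers of other tissues 1 was higher and 2 lower, with a median of -1.17, and the fat marker Fabp4 stood at 15.3 and 18.7 against 4.95 to 8.05 CPM (-1.32).

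In livers without CCl4, 4MU against control called 1 gene of 14114 (0.00709%) by edgeR, where 966 had an unadjusted p under 0.05 and DESeq2 called 51. That gene, Ppp1r10, a regulatory subunit of protein phosphatase 1 named after its values were seen, had a mean of 15 CPM in control and 48.3 CPM in 4MU (log2 fold change 1.68, SE 0.278, edgeR adjusted p = 0.0379). None of the members of the 44 lists was called in the livers without CCl4. The interaction, the difference between the change with 4MU in CCl4 livers and that in livers without CCl4, passed the threshold in 800 genes (5.67%), 384 above 0 and 416 below. Without CCl4 mouse 2 it passed in 20.

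The interaction was highest in Cyp7a1, Prtn3, Mfsd2a, Ighg1 and Chac1 and lowest in Exo1, Ska3, Rad51c, Cdc45 and Tfrc. Cyp7a1 was at 45.1 to 58.9 CPM in the 3 4MU mice, below each of the 4 controls, and above both CCl4 mice in the CCl4+4MU mice, an interaction of 4.86 on the log2 scale. Its change in livers without CCl4 was not called (-2.06, edgeR adjusted p = 0.23). Prtn3, proteinase 3 of neutrophils and immature myeloid cells, stood at 6.62 and 6.41 CPM in CCl4, 11.9 to 51.1 CPM in CCl4+4MU, 2.49 to 58.1 CPM in controls and 1.92 to 3.33 CPM in 4MU (4.81). Its change in CCl4 livers was not called (1.93, edgeR adjusted p = 0.104). Exo1, an exonuclease of mismatch repair, stood at 3.7 and 7.95 against 0.32 to 1.4 CPM in CCl4 livers and at no more than 0.203 CPM in any control or 4MU mouse (interaction -4.71). At that level the change without CCl4 rests on a few counts. Rad51c of recombination (-3.00), Cdc45 of the replicative helicase (-2.89) and Ska3 of the kinetochore (-3.18) had log2 changes of -2.46, -2.67 and -2.0 in CCl4 livers and of 0.54, 0.22 and 1.18 without CCl4. Tfrc, the transferrin receptor, stood at 119 and 120 CPM in CCl4, 32.6 to 60.5 CPM in CCl4+4MU, 15.6 to 28.3 CPM in controls and 25.1 to 96.4 CPM in 4MU (-2.81). It fell in CCl4 livers by 1.46 on the log2 scale and lost that call without CCl4 mouse 1 (-1.48) or CCl4+4MU mouse 1 (-1.36) or 4 (-1.35).

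CCl4+4MU livers still differed from control livers in 2853 genes (20.2%), 1718 higher and 1135 lower. These values share the CCl4+4MU libraries with the comparison above and are set beside it only. Of the 40 mitotic genes 38 were higher than in control, with a median of 3.40, and of the 38 replication genes 19, with a median of 0.81. Of the 46 matrix genes 32 were higher, with a median of 1.27, and Col1a1 stood 4.08 above control on the log2 scale (edgeR adjusted p = 3.59e-06). Of the 30 ER folding genes 2 were higher, with a median of -0.08, and Hsp90b1 differed by -0.33 (edgeR adjusted p = 0.329). Of the 51 xenobiotic genes 21 were lower and 2 higher, with a median of -0.40, Cyp2e1 by -1.84 (edgeR adjusted p = 0.000335) and Cyp2c38 by -3.49. Of the 44 amino acid genes 2 were higher and 2 lower, with a median of -0.03. In CCl4+4MU livers the ER and amino acid genes thus had medians near those of control, and the mitotic and matrix genes lay above.

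Against the CCl4+siLuc-LNP mice, CCl4+4MU called 88 genes (0.623%), 48 higher and 40 lower, and 2695 had an unadjusted p under 0.05. The 4 CCl4+siLuc-LNP mice varied widely, with summed mitosis levels of 621 to 1560 CPM. Without CCl4+siLuc-LNP mouse 3, in which the 10 most abundant genes took 36.3% of the counts, 923 genes were called, and without CCl4+4MU mouse 4 10 were. CCl4 mouse 2 lay above all 4 CCl4+siLuc-LNP mice in 37 of the 40 mitotic genes and mouse 1 in 3, against 23.3% and 16.3% of all tested genes. Of the mitotic genes 4 were lower in CCl4+4MU than in CCl4+siLuc-LNP, with a median of -1.30 over the 40, Smc2 by -1.67, Nusap1 by -1.62 and Kif11 by -1.58 among them. Timp1 (-1.23) and Cenph (-1.99) were lower too, and Rnase4 (1.29), Serping1 (0.97), Cyp2c38 (1.35), Igkc (1.20), Plk3 (1.69) and Mfsd2a (3.97) higher. The median was -0.82 over the replication genes, -0.25 over ER folding, 0.55 over the pericentral genes, 0.51 over the xenobiotic genes and 0.26 over amino acid breakdown. Of these 5 lists 1 pericentral and 1 xenobiotic member was higher, and no other member was called. Among the 11 Kupffer cell markers 3 were higher than in CCl4+siLuc-LNP and none lower, with a median of 0.63, against 0.340% of all tested genes higher.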

How the data were processed

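Total liver homogenates of 27 mice were sequenced as directional polyA libraries in paired-end mode on a NextSeq500. Per the labels and the methods of the study, the authors trimmed reads with Trimmomatic 0.39, aligned them with HISAT2 to GRCm39 with Ensembl release 105, and counted read pairs per gene with featureCounts, leaving out multimapping pairs. Neither the HISAT2 version nor the strand setting is given in the sources used here, so overlapping and antisense genes may share reads, and close copies lose them. The deposited values are raw counts for 55414 genes, not normalised or filtered. Symbols and positions are from GENCODE M39 by Ensembl identifier, and 33 tested genes had no symbol.

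Genes averaging 10 counts or more over all libraries were tested (14114) with edgeR 4.0.16 in R 4.3.3. The fit used TMM, all 27 libraries in 8 groups without covariates and the quasi-likelihood test, and p was adjusted by Benjamini-Hochberg over all tested genes (threshold 0.05). The 2 CCl4 mice thus share the spread of all groups. Alternatives were DESeq2 1.42.0, limma-voom (limma 3.58.1), other scalings, filters and sets of samples, a replicate block, a minimum log2 change of 1 in either direction, unadjusted p-values and each library left out. A fit without the shallowest library was chosen after seeing the data. Scripts were tested on simulated counts. Total counts were 7044386 to 29425937 per library, and the floor of 3 counts covers counting error only. Replicate pairs of these 2 groups differed by more than sampling noise (chi-square per degree of freedom 24.8 to 99.7). Each library is a separate sample by its labels and is called a mouse here, but no label ties it to a numbered animal, so p-values measure the spread between these samples.

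Named genes were the 10 largest changes in each direction among called genes whose groups did not overlap, with at least 5 CPM in the higher group. Up to 4 called members of each list with the smallest adjusted p, 19 genes of the hyaluronan, fibrosis and hepatocyte literature, and the 5 largest interaction values in each direction were added. Predicted genes were left out. Ppp1r10, Alb, Krt7, Krt19, Sox9, Lrat, Reln, Des, Pdgfrb and the other called genes of the hyaluronan list were named after their values were seen. The comparison, the 44 gene lists and the rule were chosen with earlier results of these data known. Of the listed symbols 4 (Cyp2c44, Ddx58, Tf and Ahsp) matched no gene in the table. Promoter windows are RefSeq sequence on GRCm38.p6. Some genes that the rule selects are not reported here.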

Additional observations from a re-analysis of the deposited data

Results flagged for a closer look

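In groups of 4, a mouse was set apart where its gap to the nearest other, divided by the range of the group, exceeded Dixon's 95% critical value for 4 samples. For normally distributed values chance gives about 1 in 20 groups. The test used CPM without a log, so that rate is only a guide. Of 258 groups (the CCl4+4MU and control mice of 129 named genes), 18 held such a mouse. Groups with no more than 3 counts in any mouse were among the 258 but were not checked. CCl4+4MU mouse 4 was the far mouse in 8 of the 18. It was the highest at 54.2 CPM in Muc1, 44 CPM in Mmp7, 92.6 CPM in Krt19, 4.45 CPM in Krt7, 61.3 CPM in Hyal2, 23.2 CPM in Acta2 and 14.1 CPM in Des, and the lowest at 18.7 CPM in Hamp2. CCl4+4MU mouse 3 was the highest in Pbk (9.28 CPM) and Pcna (51.3 CPM), and CCl4+4MU mouse 1 in Egr1 (16.1 CPM). Control mouse 1 was the highest in Vnn1 (12.3 CPM) and Cd74 (159 CPM), control mouse 2 in Prtn3 (58.1 CPM), control mouse 3 in Haao (741 CPM) and control mouse 4 in Mfsd2a (76.2 CPM). Control mouse 2 was the lowest in Timp1 (0.059 CPM) and control mouse 3 in Itih4 (2705 CPM).

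The change with 4MU differed between livers with and without CCl4 in 64 of the 125 tested named genes, by the interaction term of the edgeR fit (adjusted p from 0.0109 to 0.0495). Over all tested genes the share was 5.67%. Most named genes were chosen by their change in the same CCl4 and CCl4+4MU libraries, and some by the interaction itself. A high count was therefore built in and is not independent evidence. The values that follow are log2 fold changes in CCl4 livers minus those in livers without CCl4. In genes of cell division and chromatin the interaction was -2.20 in Aurka, -2.67 in Smc2, -2.26 in Nusap1, -1.89 in Pcna, -2.13 in Mcm7, -2.33 in Mcm4, -1.99 in Hat1, -1.68 in Ezh2, -4.71 in Exo1, -3.18 in Ska3, -3.00 in Rad51c and -2.89 in Cdc45. In genes of RNA processing and ER folding it was -1.13 in Hnrnpab, -1.62 in Srsf3, -1.48 in Dkc1, -1.42 in Nop56, -0.64 in Eif3b, -1.59 in Dnajc10, -1.18 in Pdia6, -1.28 in Creld2 and -1.51 in Hsp90b1. Other values below 0 were -1.10 in Pgm3, -1.07 in Uap1, -1.12 in Ugp2, -2.75 in Ccl2, -2.05 in Vnn1, -0.89 in Hadhb, -1.06 in Ccng1 and -2.81 in Tfrc. In genes of hepatocyte metabolism and transport it was 4.86 in Cyp7a1, 2.24 in Cyp2e1, 1.58 in Cyp2d22, 2.03 in Ugt1a6a, 1.58 in Sult1a1, 1.88 in Slc10a1, 2.74 in Slc22a26, 1.20 in Cat, 1.53 in Haao, 1.92 in Mat1a, 2.06 in Tm7sf2, 2.1 in Tat and 3.47 in Mfsd2a. In genes of secreted hepatocyte proteins it was 1.14 in Alb, 1.03 in Ahsg, 1.70 in Hrg, 1.11 in Itih3, 1.27 in Ambp, 1.96 in Apoc1, 1.61 in Apoa2, 1.43 in Serping1, 1.19 in C1ra, 1.67 in Hgfac, 1.61 in Saa4 and 2.51 in Rnase4. In the remaining genes it was 2.79 in H2-Ab1, 2.18 in Cd74, 1.98 in Igkc, 3.25 in Ighg1, 4.81 in Prtn3, 2.09 in Tle2, 1.38 in Map1lc3b, 3.11 in Chac1, 1.59 in Lgr5 and 1.92 in Nr1i3. Without CCl4 mouse 2 the interaction passed in 20 genes of all tested, against 800 with it.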

How the results depend on the processing

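CCl4+4MU against CCl4 called 2580 genes, and 177 to 2600 when 1 of the 6 mice or the shallowest library was left out, the fewest without CCl4 mouse 2, with 1647 without CCl4+4MU mouse 4. It called 1139 with a log2 change of 1 or more in size, 4777 at an unadjusted p under 0.05 and 1588 with only the 14 CCl4 mice in the fit. DESeq2 (3025), limma-voom (2766), DESeq2's size factors (2615), no low-count filter (2636), filterByExpr (2566), only the compared groups (2118) and library totals (3708) stayed within 1.5 times the first count, but with library totals 13.2% of the calls were higher, against 45.3%. None of the 2580 genes had the opposite sign under these alternatives, apart from 3 without CCl4 mouse 2 and 3 without CCl4+4MU mouse 4.

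4MU against control called 1 gene, 966 unadjusted, 51 by DESeq2, 136 without the low-count filter, 0 under library totals, 0 with only the compared groups and 0 to 1 with a library left out. The interaction called 800 genes, 3603 unadjusted, 1481 by DESeq2, 2182 under library totals (179 of them above 0), 1386 without the filter, 1308 with only the compared groups and 20 to 1195 with a library left out, the fewest without CCl4 mouse 2 and the most without CCl4 mouse 1. CCl4+4MU against control called 2853, 4730 unadjusted, 1340 with a log2 change of 1 or more in size and 2037 to 2907 with a library left out, and under library totals 75.6% of its calls were higher, against 60.2%. CCl4+4MU against CCl4+siLuc-LNP called 88, 2695 unadjusted, 520 by DESeq2, 167 by limma-voom, 1042 without the filter, 9 with only the compared groups and 10 to 923 with a library left out, the fewest without CCl4+4MU mouse 4 and the most without CCl4+siLuc-LNP mouse 3.

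Replicate numbers did not pair the samples: the deviations of same-numbered CCl4 and CCl4+4MU mice correlated at -0.0193 and -0.0816. With the replicate number as a block the test called 2183 genes in CCl4+4MU against CCl4, 1 in 4MU against control, 561 in the interaction, 2602 in CCl4+4MU against control and 30 in CCl4+4MU against CCl4+siLuc-LNP. The log2 fold change of Krt19 was -0.01 with the block.

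With a library left out, the sign of the log2 fold change turned in 7 named genes. The ranges were -0.20 to 0.02 in Ugdh (0.02 without CCl4 mouse 1), -1.32 to 0.01 in Fabp1 (0.01 without CCl4 mouse 2), -0.13 to 4.43 in Mmp7 and -1.61 to 3.14 in Krt19 (lowest without CCl4+4MU mouse 4), -0.87 to 0.29 in Lrat and -0.72 to 0.04 in Reln (highest without CCl4 mouse 1), and -0.60 to 0.33 in Pdgfrb (highest without CCl4 mouse 2). By limma-voom Krt19 stood at -0.04. The causes were not tested. Of the 125 tested named genes, 104 to 119 kept direction and side of the threshold without any 1 mouse of the comparison other than CCl4 mouse 2, and 35 without that mouse. The other alternatives left 107 to 124 of them so. With 2 CCl4 mice, and few counts for the hyaluronan synthases, depth and replication limit what could be called.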
